A study of Mus musculus with 30 samples.

Results

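Tumour endothelial cells were compared with CAF2, the CD34-positive subset of cancer-associated fibroblasts, across all genes of the deposited count matrix. The comparison uses 10 of the 30 libraries of the series: the 5 endothelial and the 5 CAF2 libraries, chosen by their labels and paired by tumour number. Both populations were sorted by flow cytometry from the same 5 mammary adenocarcinomas of 5 mice of the strain FVB/N-Tg(MMTVPyVT)634Mul/J, in which the MMTV promoter drives the polyoma middle T antigen in mammary epithelium, so every group carries the transgene and no normal tissue is included. Endothelial cells were sorted as CD45-negative and CD31-positive, and the labels name no gate on CD34 or CD90 for them. CAF2 cells were CD45-negative, CD31-negative, CD90-positive and CD34-positive. Tumours measured 750 mm3 and are numbered 5, 6, 8, 10 and 11. The other 20 libraries of the same tumours serve here as background: CAF1, the CD34-negative counterpart of CAF2, and 3 macrophage populations sorted on CD206 and MHC class II, called CD206hi, CD206neg and CD206pos. For the CD206neg libraries of tumours 6 and 8 the matrix column names give MHC class II high where the labels give low. The labels were followed. The age of the mice is not given in the sources used here.

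Endothelial cells line blood and lymphatic vessels and are recognised by junction proteins such as VE-cadherin and by the receptors for vascular endothelial growth factors (VEGFs). Fibroblasts secrete the interstitial matrix of collagens, elastic fibres and proteoglycans, and a CD34-positive, PI16-positive and DPP4-positive type is known from the adventitia of vessels and from fascia. CD34 is a sialylated surface mucin found on vascular endothelium, on haematopoietic progenitors and on such fibroblasts, so that it is carried by both populations compared here.

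Total counts ran from 8012298 to 11957076 over the 10 libraries, and 12075 to 13552 genes had at least 1 count. Levels are given as normalised CPM, counts relative to the library total on the usual CPM scale, adjusted by the trimmed mean of M-values (TMM) over all 30 libraries, and where 5 values are given they stand in the order of tumours 5, 6, 8, 10 and 11. Log2 fold changes are endothelial minus CAF2, so positive values are higher in endothelial cells, and come with their standard error from edgeR's quasi-likelihood test with tumour as a block. A gene was called at a Benjamini-Hochberg adjusted p under 0.05 over the 12470 genes tested. RNA was measured in bulk, so fewer cells of a type and less RNA per cell cannot be told apart.

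Pecam1 encodes CD31, the antigen of the endothelial gate. It stood at 861, 795, 269, 612 and 749.6 CPM in the endothelial libraries and at 3.14, 1.45, 0.756, 0.785 and 1.20 CPM in CAF2. Every endothelial library was far above every CAF2 library, and the library of tumour 8 was the lowest of the endothelial ones. Thy1, which encodes CD90, stood at 2.86, 0.295, 7.49, 1.42 and 2.20 CPM in endothelial cells and 21.3, 46.9, 23.7, 51.7 and 62.96 CPM in CAF2 (log2 -3.99 ± 0.72, edgeR adjusted p = 0.00275), without overlap, and at -4.69 without tumour 8. Ptprc, which encodes CD45, stayed at or below 1.33 CPM in all 10 libraries. Sema3c, a secreted class 3 semaphorin, was at 3.87, 0.589, 3.13, 0.0791 and 1.61 CPM in endothelial cells and 611, 462, 490.3, 635 and 666 CPM in CAF2, 359-fold lower in endothelial cells, and the groups lay far apart. Pecam1 and Thy1 were part of the sort, so their direction is a check of the labels and not a result.

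**Figure D1:**
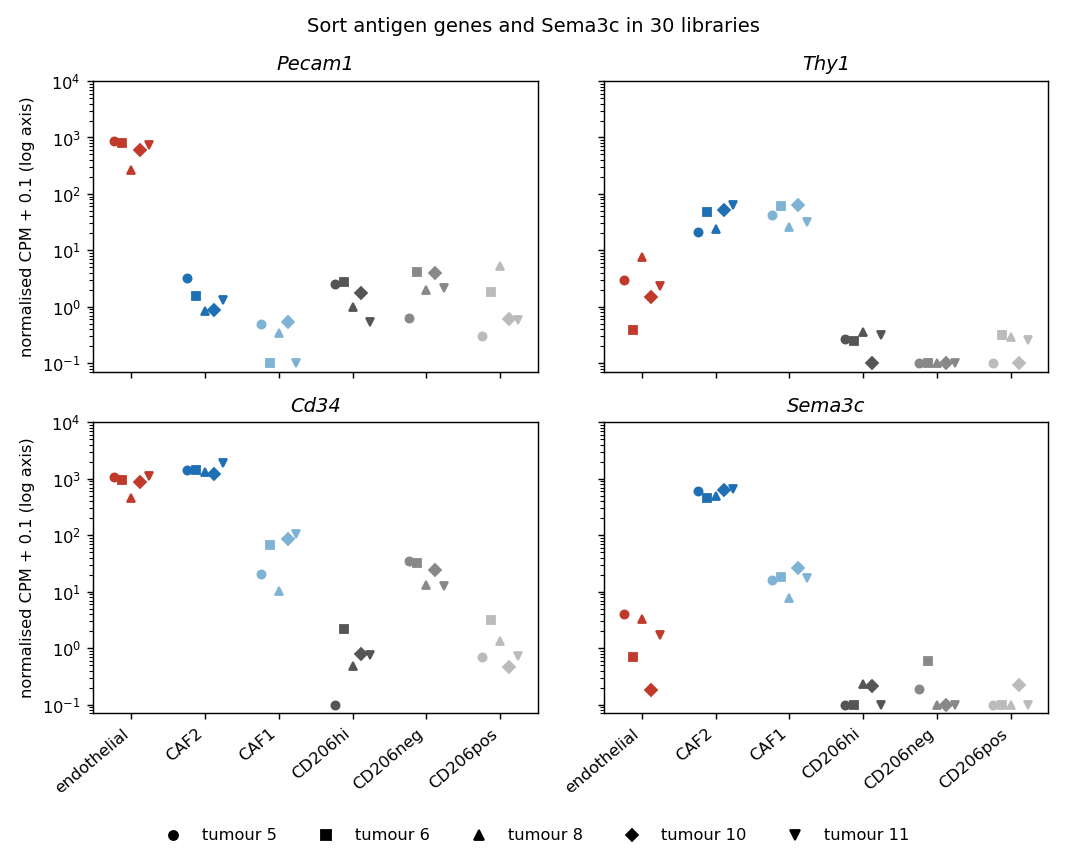
Normalised CPM plus 0.1 (log axis) of Pecam1, Thy1, Cd34 and Sema3c in each of the 30 libraries, by population, with a symbol for each tumour. Pecam1 was high in endothelial libraries alone, Cd34 was high in both endothelial and CAF2 libraries (466 to 1871 CPM), and Sema3c was high in CAF2 (462 to 666 CPM).

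Markers of other cells were present to different degrees. Of 14 luminal epithelial genes 12 could be tested and all 12 were called higher in endothelial cells, and the summed level of the 14, Epcam among them, was 162 to 2179 CPM in endothelial libraries and 9.82 to 529 in CAF2, where the highest was tumour 6. Of 5 myoepithelial genes 4 were called higher, and the 5 summed to 43.4 to 957 CPM in endothelial libraries and 2.28 to 10.7 in CAF2, with Krt14 at 571, 79.9, 127, 16.5 and 51.7 CPM in endothelial cells. Of 14 pericyte and smooth muscle genes 11 could be tested, 6 were called higher and 5 were not called. Among the 6 are Mcam and Notch3, which are also members of the junction and Notch lists below. The 14 genes of the pericyte list summed to 700 to 2327 CPM in endothelial libraries and 176 to 331 in CAF2. Within that list Rgs5, a marker of pericytes, was at 218, 2.75, 594, 46.9 and 67.1 CPM in endothelial cells, so tumours 5 and 8 were high and tumour 6 low, and its call (log2 6.53, edgeR adjusted p = 0.0201) was lost without tumour 5 (log2 5.59), 8 (5.19), 10 (6.35) or 11 (7.06), and without tumour 6 the value was 8.01. Of 10 macrophage genes 8 could be tested, with 3 called higher and 1 lower, and the 10 summed to 153 to 524 CPM in endothelial libraries, mostly Cd14, and 24.2 to 84.2 in CAF2, while T and NK cell genes, of which the matrix holds 1, reached at most 0.169 CPM in the endothelial libraries. The CAF2 library of tumour 6 was the highest of its group in Epcam, at 0.966, 99.8, 4.37, 2.14 and 3.52 CPM in CAF2, and in Krt14, Rgs5, Cd14 and Ptprc. The part of these cells in the results below was not tested.

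The endothelial library of tumour 8 stood apart from the other 4. Its 16 endothelial junction and surface genes summed to 5213 CPM against 11639 to 15943 in the others, and its 15 fibroblast identity genes to 1049 CPM against 71.8 to 541. In CAF2 the same fibroblast sum was 36175 to 62943 CPM. Not all fibroblast lists were high in the endothelial library of tumour 8. Its adventitial fibroblast genes, Cd34 and Ly6c1 among them, summed to 1186 CPM against 1940 to 2636 in the other endothelial libraries. Its pericyte and smooth muscle genes summed to 2327 CPM against 700 to 1697. Without tumour 8 the test called 6399 genes between the populations, against 6454 with it.

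Of 12470 genes, 6454 (51.8%) were called, 3364 (27%) higher and 3090 (24.8%) lower in endothelial cells. Every count of list members called is to be read beside these shares. The direction was the same in all 5 tumours for 6096 of the genes called, and for 4531 (36.3% of genes tested) the ranges of both groups did not overlap. Over all genes tested, called or not, the ranges did not overlap for 37.2%. At least 4-fold differences were called for 1287 genes higher and 1207 genes lower in endothelial cells. Of the genes called higher, 171 had no CAF2 library above 3 counts, and 99 of those called lower had no endothelial library above 3 counts. The median log2 fold change of all genes was 0.07, and 0.41 when libraries were scaled by their totals alone, a shift that applies to every fold change given here.

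The 8 largest rises in endothelial cells were all in genes at or near 0 in CAF2. Ushbp1 was at 281, 351, 182, 439.7 and 330.3 CPM in endothelial cells and had no count in any CAF2 library, at least 1175-fold higher against a floor of 3 counts per library. Cldn5, the tight junction claudin of vessels, had 185, 198, 93.4, 231 and 259.8 CPM and likewise no count in CAF2 (at least 717-fold). Myct1 and Mfng, a glycosyltransferase that modifies Notch receptors, also had no count in CAF2 and were at least 533-fold and 398-fold higher. The other 4 had at most 3 counts in any CAF2 library. These were the lectin-like receptor Cd93 at 248 to 593 CPM in endothelial cells, the Notch ligand Dll4 at 116 to 411, Gpihbp1, which carries lipoprotein lipase across capillaries, at 973 to 2044, and the receptor kinase Tie1 at 125 to 477.

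The 8 largest falls were in secreted factors, matrix genes and transcription factors of CAF2. Sfrp4, a secreted WNT antagonist, stood at 1059, 840.3, 1563, 972 and 1815 CPM in CAF2 and at no more than 0.339 CPM in any endothelial library. Wnt2, a WNT ligand, ran at 148 to 184 CPM in CAF2 and 0 to 0.295 in endothelial cells. Pcolce2, an enhancer of procollagen processing, was at 309 to 698 CPM in CAF2 against 0 to 0.884, the proteoglycan Ogn at 826 to 1289 against 0.0791 to 2.96, and the matrix protein Dpt at 2142 to 3714 against 0.783 to 2.96. Reg3g, an antimicrobial lectin, and the transcription factors Tcf24 and Lhx8 had no count in any endothelial library and were at least 74.9, 62.3 and 59.4-fold lower there.

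**Figure D2:**
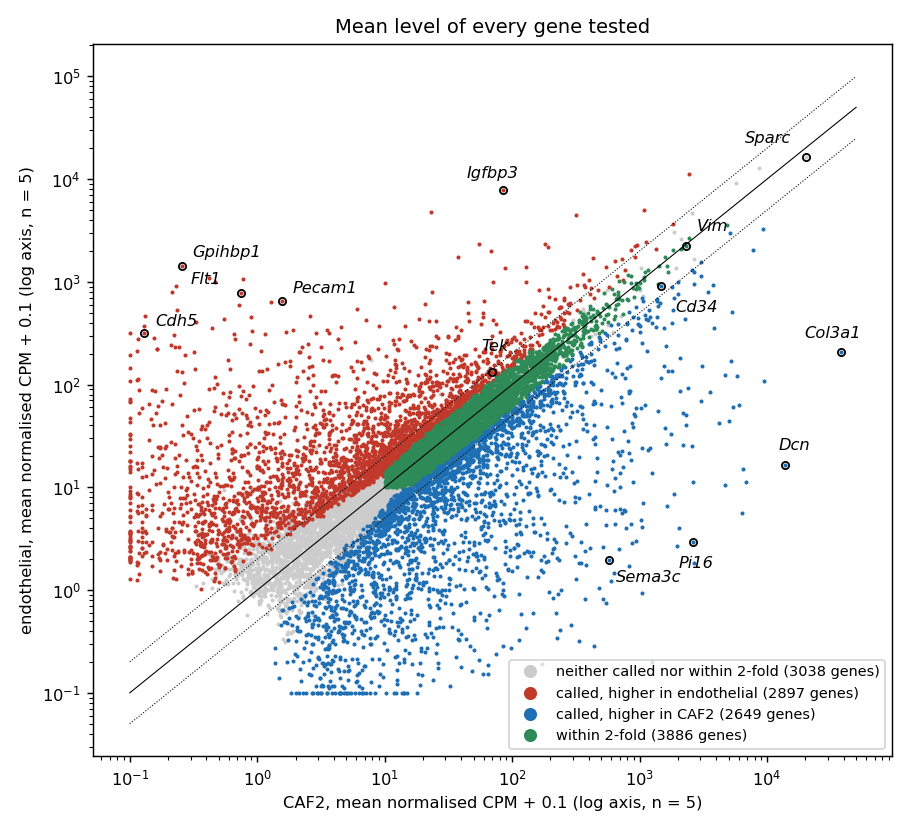
Mean normalised CPM plus 0.1 in endothelial cells against CAF2 (both log axes, n = 5 libraries each) for the 12470 genes tested, with the line of equality and dotted lines at 2-fold. Green marks the 3886 genes shown to lie within 2-fold, red and blue the other genes called higher or lower in endothelial cells, and grey the 3038 genes that were neither.

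Genes of endothelial identity were almost all higher in endothelial cells. Of 16 junction and surface genes, 15 were called higher, with a median log2 fold change of 10.50, or 9.86 with genes at or under 3 counts set to that floor. The 15 include Pecam1, a gene of the sort, whose direction is not a result. Cdh5, which encodes VE-cadherin, was at 292, 347, 117, 426 and 406 CPM in endothelial cells and had at most 1 count in a CAF2 library. Esam, an adhesion molecule of endothelial junctions, stood at 1167, 1309.8, 546, 1180.1 and 1208 CPM against 0 to 0.727 in CAF2 (3617-fold higher, edgeR adjusted p = 9.1e-06). In both genes the 5 endothelial libraries lay above all CAF2 libraries, and tumour 8 was the lowest. Plvap, the diaphragm protein of fenestrated vessels, was at 4483, 7886, 1871, 4338 and 5091 CPM against 18.6 to 28.04 in CAF2, 197-fold higher. Gja4, a connexin of arterial endothelium, was at 53.5, 74.8, 57.7, 61.3 and 72.7 CPM and had at most 1 counts in a CAF2 library. The exception was Jam2, a junctional adhesion molecule, at 71.2, 85.2, 59.2, 60.03 and 119.9 CPM in endothelial cells and 89.5, 62.8, 58.3, 74.05 and 82.7 in CAF2. Its ranges overlapped and its levels were shown to lie within 2-fold (log2 0.12 ± 0.16).

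Of 6 leukocyte adhesion genes, 5 were called higher (median log2 2.49). Selp, which encodes P-selectin and captures leukocytes on venules, stood at 1459.8, 1746, 199.7, 544 and 1069.8 CPM in endothelial cells and 0, 1.09, 0.588, 0.0713 and 0.0926 CPM in CAF2. Sele, the E-selectin of activated endothelium, was at 914, 485, 113, 237 and 595 CPM against 3.06, 3.76, 3.53, 0 and 2.13. The chemokine-binding receptor Ackr1, a venular marker, was at 146, 191, 42.8, 64.1 and 98.2 CPM against 7.73, 10.1, 6.30, 13.3 and 14.6 (9.73-fold higher, edgeR adjusted p = 0.000236), without overlap. All 3 genes were lowest in tumour 8 among endothelial libraries. Icam1, an integrin ligand, was 2.02-fold higher (log2 1.02, edgeR adjusted p = 0.0173), with overlapping ranges and no call without tumour 5 (log2 0.83), 6 (0.88) or 11 (1.00). Vcam1, the ligand of the integrin VLA-4, was not called, at 138, 90.2, 22.5, 35.2 and 62.5 CPM in endothelial cells and 152, 104, 160.3, 71.8 and 91.9 CPM in CAF2.

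Endothelial transcription factors were called higher in 13 of 15 cases (median log2 6.68, or 6.29 at the floor). Sox17, a SOX factor of arterial endothelium, was at 84.6, 99.03, 60.00, 101 and 97.7 CPM and had at most 3 counts in any CAF2 library. The ETS factors Fli1 and Ets1 were detected in both populations, Fli1 at 94.9, 86.8, 45.4, 98.1 and 106 CPM against 2.98, 2.55, 1.85, 2.996 and 2.04 (34.9-fold higher, edgeR adjusted p = 3.38e-06) and Ets1 24.6-fold higher (edgeR adjusted p = 1.82e-05). Neither gene's ranges overlapped. Epas1, which encodes HIF-2 alpha, was 31.9-fold higher at 113, 177, 89.9, 128 and 118 CPM against 5.96, 3.64, 3.61, 3.42 and 3.33 (edgeR adjusted p = 9e-06). The 2 genes not called were the LIM-domain factor Lmo2, at 56.7, 90.5, 45.4, 81.1 and 77.9 CPM against 63.3, 55.03, 41.2, 49.6 and 57.9 shown to lie within 2-fold and called without tumour 5 (log2 0.52), and the flow-responsive factor Klf2, at 279, 529, 111, 374 and 251 CPM against 275, 351, 413, 646 and 569.

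Receptors for angiogenic ligands were called higher in 15 of 16 cases (median log2 5.20). Flt1, a VEGF receptor, stood at 1259, 835, 269.8, 820.1 and 674 CPM in endothelial cells and 0.161, 1.45, 0.168, 0.713 and 0.741 CPM in CAF2 (1285-fold higher, edgeR adjusted p = 1.21e-05). Kdr, the main signalling VEGF receptor of endothelium, stood at 434, 302, 176, 385 and 393 CPM against 9.58, 3.39, 3.19, 0.571 and 0.278 (137-fold higher, edgeR adjusted p = 0.000274). Groups did not overlap for either gene, and tumour 8 was again the lowest endothelial library. The 2 receptors with the smallest differences are given in full. Tek, the angiopoietin receptor TIE2, was at 190.3, 138, 62.2, 112 and 156 CPM in endothelial cells and 80.1, 51.2, 45.7, 75.5 and 97.5 CPM in CAF2, 1.89-fold higher (edgeR adjusted p = 0.00414), higher in 5 of 5 tumours although the ranges overlapped. Acvrl1, the BMP9 receptor ALK1, was at 98.98, 92.6, 32.3, 85.6 and 75.96 CPM against 64.8, 69.6, 46.9, 69.6 and 55.1. It was not called (log2 0.30) and was shown to lie within 2-fold, but was called without tumour 8 (log2 0.46).

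Of 12 tip cell genes, known from sprouting vessels, 11 were called higher and 1 lower (median log2 6.94, or 6.26 at the floor). Kcne3, a potassium channel subunit, was at 534, 504, 455, 879 and 311 CPM in endothelial cells and no more than 0.606 CPM in CAF2. Esm1, a secreted proteoglycan, was at 358, 185, 118, 289 and 120.4 CPM against 0, 1.82, 2.43, 0.285 and 0.278. Adm, which encodes the vasodilator adrenomedullin, went the other way, at 81.3, 43.3, 94.1, 72.2 and 41.9 CPM in endothelial cells and 551, 424, 697, 629 and 1314 CPM in CAF2 (10.1-fold lower, edgeR adjusted p = 0.000226), without overlap. Ramp2, which forms the adrenomedullin receptor with Calcrl, was 5.63-fold higher in endothelial cells at 383, 564, 133, 503 and 526 CPM against 64.5, 63.2, 56.2, 72.05 and 97.96.

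Notch genes were called higher in 9 and lower in 1 of 12 cases (median log2 5.37). Notch4, a receptor of endothelium, was at 142, 169.9, 74.4, 208 and 121 CPM against 0, 0.364, 0.924, 0.785 and 0.463 (277-fold higher, edgeR adjusted p = 3.04e-05), and Nrarp, a Notch target, was at 125, 111, 96.5, 172 and 88.4 CPM against 0, 0.364, 0.336, 1.14 and 0. Notch2 was lower in endothelial cells, at 6.03, 8.65, 1.68, 2.77 and 4.74 CPM against 41.6, 33.6, 30.98, 48.4 and 43.9 (9.05-fold lower, edgeR adjusted p = 0.000284). Ranges of these genes did not overlap. Among the ligands, Jag2 was at 77.1, 77.02, 38.1, 64.2 and 52.1 CPM in endothelial cells and at most 0.242 CPM in CAF2. Jag1 was at 25.1, 20.3, 13.98, 20.6 and 17.6 CPM against 12.9, 15.3, 18.2, 23.6 and 22.4 and lay within 2-fold.

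Vascular tone and haemostasis genes split: 5 of 15 were called higher and 7 lower in endothelial cells (median log2 -1.06), beside 27% higher and 24.8% lower over all genes tested. Vwf, which encodes von Willebrand factor, was at 135, 168, 28.6, 86.2 and 104 CPM in endothelial cells against 0.0805, 0.485, 0.168, 0 and 0.0926 in CAF2, and the endothelin receptor Ednrb was 1721-fold higher. Nos3, the endothelial nitric oxide synthase, was at 290.1, 345, 56.6, 293 and 235 CPM against 0, 0.121, 0.084, 0.357 and 0. Plat, the tissue plasminogen activator, was lower, at 322, 200.1, 248, 113 and 181 CPM in endothelial cells and 1169.6, 1265, 1078, 1057 and 1138 CPM in CAF2 (5.49-fold lower, edgeR adjusted p = 0.000144). Thbd, the anticoagulant thrombomodulin, was 2.98-fold lower, Ace, the angiotensin-converting enzyme, 4.05-fold lower, and Ptgis, the prostacyclin synthase, 22.2-fold lower. All of these had the same direction in 5 of 5 tumours and no overlap. Edn1, which encodes endothelin-1, was not called, at 15.9 ± 7.24 CPM against 22.8 ± 15.2 (SD, n = 5 each).

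Lipid uptake genes of capillaries were called higher in 8 and lower in 1 of 10 cases (median log2 5.15, or 5.11 at the floor). Fabp4, a fatty acid carrier, was at 757, 1543, 532, 3247 and 2629 CPM in endothelial cells and 19.3, 24.97, 48.6, 35.9 and 57.9 CPM in CAF2 (42.7-fold higher, edgeR adjusted p = 0.000109). The enzyme and its carrier were divided between the populations: Lpl, the lipoprotein lipase, stood at 19.6, 2.46, 29.1, 14.1 and 13.2 CPM in endothelial cells and 598, 694, 974, 570.0 and 839.8 CPM in CAF2 (53.3-fold lower), while its carrier Gpihbp1 stood at 1214, 1499, 973, 2044 and 1459.7 CPM and no more than 0.252 CPM. Of 5 lymphatic markers 3 were called higher and 2 lower (median log2 3.38). Prox1, the lymphatic transcription factor, was at 5.57, 1.18, 2.80, 2.14 and 2.54 CPM in endothelial cells and 0, 0.364, 0.924, 0 and 0.37 in CAF2, and its call (log2 3.38, edgeR adjusted p = 0.0267) was lost without tumour 10 (log2 2.91) or 11 (3.65), while the value was 2.64 without tumour 5 and 4.05 without tumour 8. Lyve1, a hyaluronan receptor, was at 8.89, 0.589, 19.5, 12.9 and 20.1 CPM against 0, 0, 1.76, 0 and 0.741.

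Fibroblast identity genes were called lower in endothelial cells in 14 of 15 cases (median log2 -6.85). The 14 include Thy1, a gene of the CAF2 gate, whose direction is not a result. Pdgfra, a PDGF receptor that marks fibroblasts, stood at 0.309, 0.491, 2.01, 0.0791 and 1.44 CPM in endothelial cells and 282, 131, 203, 167 and 196 CPM in CAF2 (237-fold lower, edgeR adjusted p = 3.79e-05). Dcn, which encodes decorin, was at 12.8, 9.63, 36.7, 0.949 and 22.4 CPM against 10528, 15532, 15345, 10764 and 17466 (1158-fold lower). Groups lay apart for both genes. Pdgfrb, the PDGF receptor of pericytes and fibroblasts, was not called. It stood at 113, 0.589, 140.2, 9.41 and 17.4 CPM in endothelial cells and 124, 80.00, 99.3, 84.3 and 68.8 CPM in CAF2, with endothelial tumours 5 and 8, the 2 libraries highest in Rgs5, above the others.

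Of 14 fibroblast transcription factors, 11 were called lower and 1 higher (median log2 -4.67). Creb3l1, a factor of collagen secretion, was at 5.95, 4.91, 5.76, 1.66 and 2.46 CPM against 63.7, 62.2, 60.6, 59.6 and 51.1 (14.9-fold lower, edgeR adjusted p = 4.68e-05), and the T-box factor Tbx15 was 23.4-fold lower. Osr1, an odd-skipped factor of mesenchyme, was at 0.309, 1.47, 10.2, 0 and 0.254 CPM against 180.2, 129, 218, 268 and 272, with tumour 8 the highest endothelial library. The exception was the homeobox factor Meox1, at 81.9, 119.7, 44.1, 109.5 and 98.4 CPM in endothelial cells and 20.4, 25.3, 22.3, 11.8 and 12.6 CPM in CAF2 (5.02-fold higher, edgeR adjusted p = 0.000829), without overlap. Snai2, a factor of mesenchymal cells, was not called, at 19.95, 15.1, 28.5, 17.6 and 20.3 CPM against 15.6, 21.9, 51.1, 31.6 and 36.02, though it was without tumour 5 (log2 -0.74).

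All 14 adventitial fibroblast genes were called lower in endothelial cells (median log2 -6.83), by widely different amounts. The 14 include Cd34, a gene of the CAF2 gate. Pi16 stood at 2.01, 5.50, 2.07, 0.712 and 3.81 CPM in endothelial cells and 2289, 4625, 1349.8, 2336 and 2495 CPM in CAF2 (963-fold lower, edgeR adjusted p = 9.1e-06). Cd55, a complement regulator, was 41.5-fold lower, and Ackr3, a scavenger receptor of CXCL12, 9.82-fold lower. Ly6c1, which shares sequence with Ly6c2 and may share its reads, was high in both, at 588, 908, 284, 627 and 1089 CPM against 1345, 2035, 1623, 1740.3 and 2528 (2.75-fold lower), and Cd34, a member of the same list, is described below.

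Interstitial matrix genes were lower in endothelial cells as well. Of 8 fibrillar collagens 6 were called lower (median log2 -5.71), with Col3a1 at 381, 29.1, 478, 34.96 and 115 CPM in endothelial cells and 28913, 49176, 42249, 30979 and 37468 CPM in CAF2. Endothelial Col3a1 was highest in tumours 5 and 8. Col1a1, a chain of collagen I, was at 130.3, 32.03, 81.4, 11.8 and 49.4 CPM against 3009, 10642, 5821, 3942 and 3443, and the CAF2 library of tumour 6 was the highest. All 9 small leucine-rich proteoglycans were called lower (median log2 -6.76), with Bgn, which encodes biglycan, at 169.7, 51.1, 134, 40.2 and 62.7 CPM against 2133, 2750.3, 2790.1, 2252 and 1981 (29.3-fold lower). All 18 elastic fibre genes were called lower (median log2 -5.51), with Efemp1, a fibulin, at 3.79, 2.65, 3.69, 5.22 and 4.15 CPM against 2166, 1376, 1854, 1917 and 2922 (504-fold lower, edgeR adjusted p = 2.86e-06) and Mfap5, a microfibril protein, 718-fold lower. Fbln2, another fibulin, was 12.2-fold lower yet stood at 98.2 to 180.3 CPM in endothelial cells, against 1349.9 to 1850.1 in CAF2. Fbln5, a fibulin that binds elastin, was the smallest difference, at 153, 148, 179, 102 and 143 CPM against 244, 178, 206, 161 and 176 (log2 -0.37 ± 0.13, edgeR adjusted p = 0.0456), and was shown to lie within 2-fold. Its call was lost without tumour 5 (log2 -0.33), 6 (-0.41), 10 (-0.31) or 11 (-0.40).

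**Figure D3:**
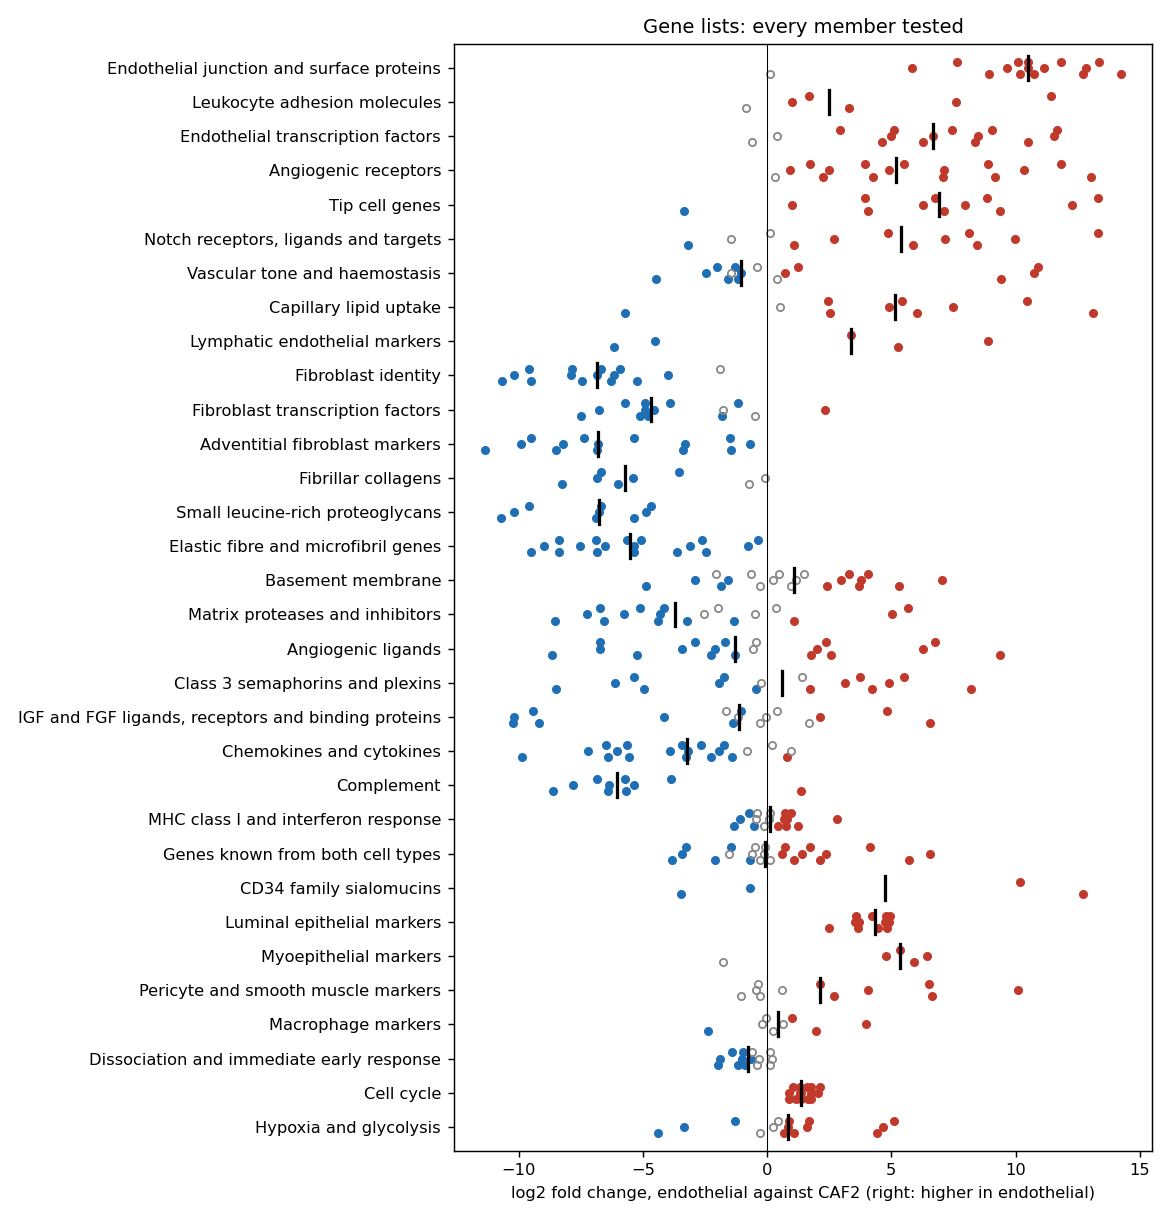
Log2 fold change, endothelial against CAF2, of every tested member of the 32 gene lists with at least 4 members tested, with filled points for genes called, open points for genes not called and a bar at the median. Medians ran from -6.85 in fibroblast identity genes to 10.50 in endothelial junction genes, and lists such as basement membrane, semaphorins and angiogenic ligands had members on both sides.

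Basement membrane genes, which encode the sheet on which endothelium rests, were divided: 8 of 20 were called higher, 4 lower and 8 not (median log2 1.06). Over all genes tested, 27% were called higher and 24.8% lower. The collagen IV chain Col4a2 was at 2662, 2720.3, 1555, 2353 and 2337 CPM in endothelial cells and 197, 181, 208, 139.9 and 179 CPM in CAF2 (13.1-fold higher, edgeR adjusted p = 2.81e-05), and Agrn, which encodes agrin, was 5.36-fold higher. Neither gene overlapped between groups. The 2 nidogens, which link laminin to collagen IV, parted. Nid2 was 16.7-fold higher in endothelial cells (424, 240.1, 105, 290.1 and 280.0 CPM against 16.02, 12.7, 19.98, 8.85 and 22.8), and Nid1 3.64-fold lower (502, 366, 211, 365 and 382 CPM against 1524, 1284, 1020.3, 1236 and 1628). Laminin alpha chains parted as well, with Lama5 at 51.04, 63.7, 33.2, 60.3 and 55.4 CPM against 0, 1.58, 0.42, 0.428 and 0 and Lama2 at 10.6, 0.295, 13.4, 1.82 and 1.95 CPM against 121, 125, 109.6, 72.1 and 149. Lama4, Lamb1 and Lamc1, which form a laminin of vessel walls, were shown to lie within 2-fold, with Lama4 at 483, 309.9, 206, 434 and 377 CPM in endothelial cells and 292, 344, 258, 303 and 329 CPM in CAF2. Lamb1 was called higher without tumour 8 (log2 0.57).

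Of 18 matrix proteases and inhibitors, 11 were called lower and 3 higher in endothelial cells (median log2 -3.69). Timp1 and Timp2, inhibitors of matrix metalloproteinases, were 19.96-fold lower and 20.9-fold lower, with Timp2 at 197, 179.7, 164, 62.4 and 149 CPM against 3349, 3352, 2343, 2699.8 and 3598. Mmp2, a gelatinase, was at 22.04, 6.98, 113, 5.06 and 16.9 CPM in endothelial cells and 2035, 1778, 1559.9, 1735 and 1736 CPM in CAF2, and tumour 8 was the highest endothelial library. Adamts9, a proteoglycanase, was 32.6-fold higher in endothelial cells (edgeR adjusted p = 9.53e-05). Timp3 and Adamts1 were not called and lay within 2-fold, but Timp3 was called lower without tumour 5 (log2 -0.68).

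Angiogenic ligands were produced on both sides: 7 of 19 were called higher in endothelial cells and 10 lower (median log2 -1.30). Vegfd, a VEGF that acts on lymphatic and blood vessels, stood at 0.387, 0.589, 0, 0.0791 and 0.593 CPM in endothelial cells and 113, 86.2, 154, 153 and 136 CPM in CAF2 (404-fold lower, edgeR adjusted p = 3.01e-05). Vegfc, its closest relative, went the other way, at 69.8, 62.3, 34.2, 24.2 and 36.2 CPM against 17.4, 10.2, 17.5, 10.5 and 10.4 (3.38-fold higher, edgeR adjusted p = 0.000884). Ranges did not overlap for either. Flt4, their shared receptor, was at 101, 89.5, 28.9, 92.8 and 82.9 CPM in endothelial cells and at most 0.571 CPM in CAF2. Vegfa was at 29.4, 17.7, 31.4, 9.49 and 7.45 CPM against 56.8, 50.9, 30.4, 47.7 and 29.4, lower in endothelial cells (log2 -1.30 ± 0.34, edgeR adjusted p = 0.0144), and its call was lost without tumour 11 (log2 -1.13). Pgf, which binds Flt1, was 5.88-fold higher in endothelial cells.

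The ligands of Tek and of the PDGF receptors were divided too. Angpt2, the context-dependent ligand of TIE2, was at 522, 182, 220.5, 232 and 88.2 CPM in endothelial cells and 2.25, 1.09, 5.54, 0.856 and 2.22 CPM in CAF2 (107-fold higher, edgeR adjusted p = 7.02e-05). Angpt1, the activating ligand, was at 2.71, 0.884, 7.77, 0.0791 and 1.35 CPM against 8.61, 9.33, 17.97, 14.2 and 16.2, lower in every tumour (edgeR adjusted p = 0.0113). Pdgfb, the ligand that recruits pericytes, was at 32.01, 49.2, 26.1, 68.9 and 27.7 CPM in endothelial cells and had 3 counts in 1 CAF2 library and none in the others. Apln, the ligand of the apelin receptor, was 78.00-fold higher in endothelial cells, and Hgf, the ligand of MET, was at 0 to 0.559 CPM against 11.9 to 23.9 CPM in CAF2.

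**Figure D4:**
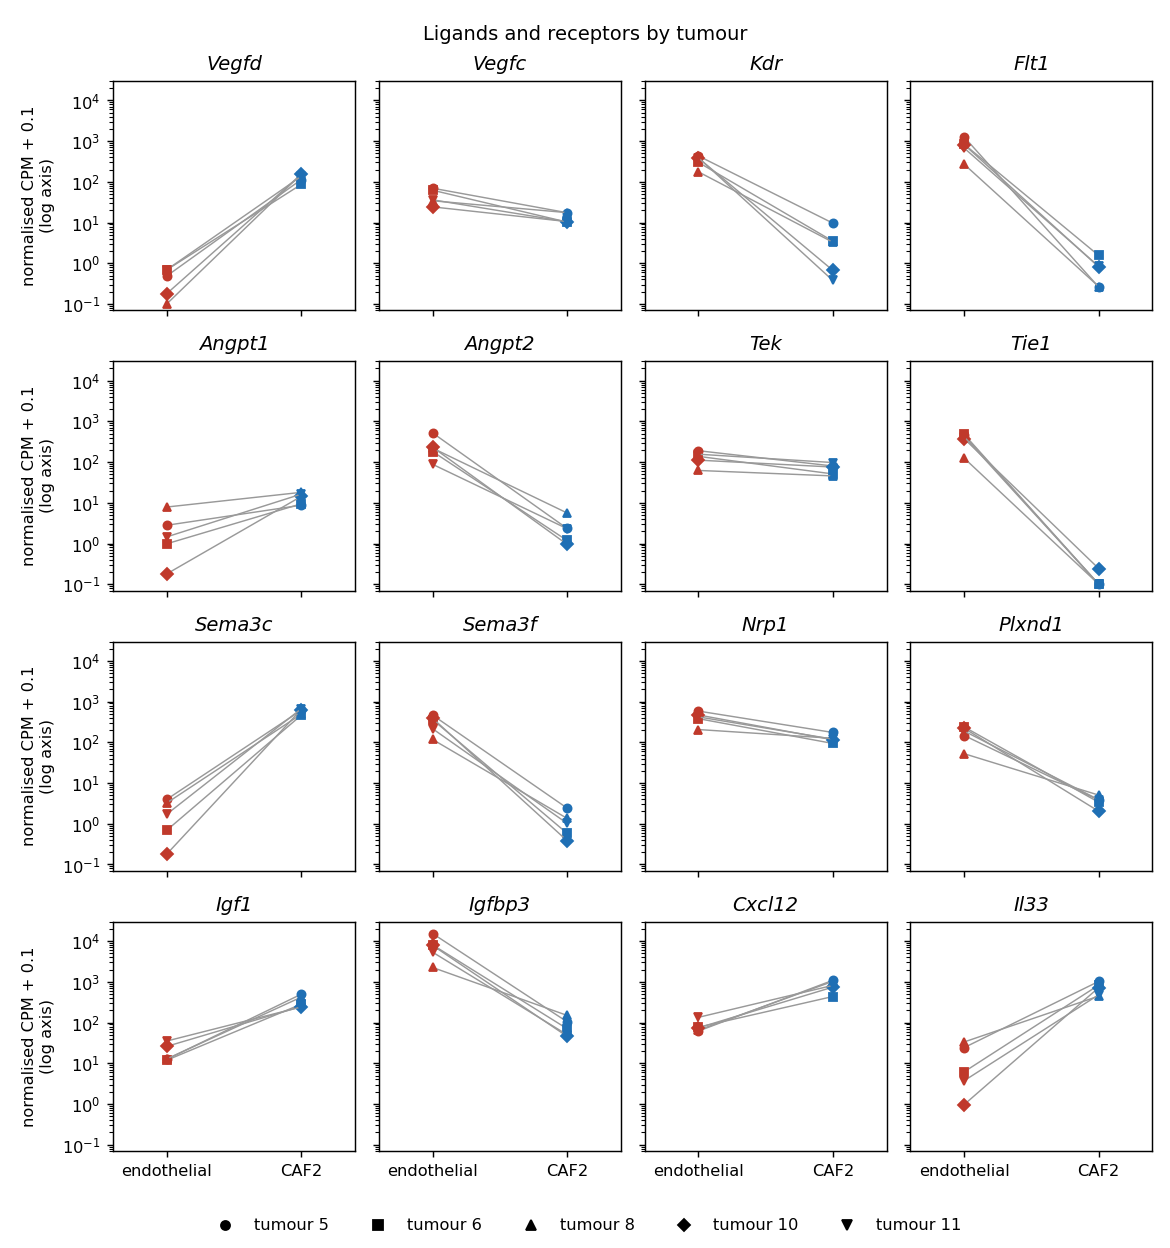
Normalised CPM plus 0.1 (log axis) of 16 ligands, receptors and a binding protein in endothelial cells (red) and CAF2 (blue), with a line joining both libraries of a tumour. The lines of Vegfd, Angpt1, Sema3c, Igf1, Cxcl12 and Il33 rose to CAF2 in all 5 tumours, and those of the other 10 genes fell, by least for Tek.

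Class 3 semaphorins, guidance cues for axons and vessels, and their plexin and neuropilin receptors were called higher in 7 and lower in 7 of 16 cases (median log2 0.59). Sema3f was at 467, 363, 118, 391 and 216 CPM in endothelial cells and 2.33, 0.485, 1.26, 0.285 and 0.926 CPM in CAF2 (295-fold higher, edgeR adjusted p = 3.27e-05). Sema3d, at 0.387, 0.982, 1.23, 0.87 and 1.10 CPM against 55.6, 57.8, 79.4, 64.3 and 64.6, was 69.1-fold lower, in the direction of Sema3c. Both receptors of the neuropilin family were higher in endothelial cells, Nrp2 29.8-fold higher and Nrp1 3.28-fold higher, with Nrp1 at 586, 381, 206, 471 and 422 CPM against 175, 93.8, 126, 116 and 119.6. Plxnd1, a plexin of vessels, was 45.4-fold higher in endothelial cells. Sema3a was not called, at 1.86 to 5.26 CPM in endothelial cells and 2.41 to 4.87 CPM in CAF2.

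Ligands, receptors and binding proteins of the IGF and FGF families were called lower in endothelial cells in 7 of 16 cases, higher in 3 and not in 6 (median log2 -1.11). Of the 7, 4 are ligands (Igf1, Fgf7, Fgf10 and Fgf18) and the others are 1 receptor and 2 binding proteins, while the 3 are 1 receptor and 2 binding proteins. Igf1 stood at 12.4, 11.8, 12.7, 25.9 and 35.1 CPM in endothelial cells and 496, 282, 420.2, 248 and 241 CPM in CAF2 (17.8-fold lower, edgeR adjusted p = 0.000225). Fgf7, a keratinocyte growth factor, was at 0.155, 0.295, 0, 0 and 0.423 CPM against 118, 72.1, 87.1, 108 and 108, and Fgf18 at most 0.0847 CPM against 19.6 to 48.2 CPM. The binding proteins that hold IGFs parted. Igfbp3 was at 15414, 8109.7, 2258, 7872 and 5371 CPM in endothelial cells against 105, 70.9, 150.3, 45.9 and 50.4 in CAF2 (94.4-fold higher), and Igfbp6 at 2.40, 2.26, 3.02, 1.66 and 3.64 CPM against 1129, 3539, 1588, 1239 and 2385 (683-fold lower). The receptors Igf1r and Igf2r were not called and were shown to lie within 2-fold (log2 0.38 ± 0.21 and -0.06 ± 0.11).

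Chemokines and cytokines were called lower in endothelial cells in 16 of 20 cases and higher in 1 (median log2 -3.23). Cxcl12, the ligand of CXCR4, was at 61.7, 76.7, 65.1, 74.3 and 134 CPM in endothelial cells and 1091, 436, 1027, 743 and 819 CPM in CAF2 (9.64-fold lower, edgeR adjusted p = 0.000128). Cxcl1, a neutrophil attractant, was at 785, 705, 320.4, 238 and 475 CPM against 4168, 8865, 3595, 5109 and 4930.4 (10.8-fold lower). Both were without overlap, and Cxcl1 was highest in the CAF2 library of tumour 6. The monocyte attractant Ccl7 was 146-fold lower. Il33, an alarmin, was at 24.2, 6.09, 33.3, 0.87 and 3.64 CPM against 1026, 831, 446, 722 and 482. Cx3cl1, which encodes fractalkine, was the 1 gene called higher (log2 0.81 ± 0.26, edgeR adjusted p = 0.0343), with overlapping ranges and no call without tumour 5 (log2 0.61), 8 (0.73) or 11 (0.66). Cxcl10, an interferon-induced chemokine, lay within 2-fold.

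Complement genes were called lower in 9 of 10 cases (median log2 -6.05). C3, the central component, was at 1.08, 5.99, 4.19, 0.0791 and 3.22 CPM in endothelial cells and 1223, 832, 589.7, 835 and 1218 CPM in CAF2 (388-fold lower, edgeR adjusted p = 0.000157). Serping1, the C1 inhibitor, was at 235, 6.48, 269.5, 34.1 and 60.4 CPM against 5500.5, 6087, 5174, 4914 and 7236, with endothelial tumours 5 and 8 the highest. Cd59a, a membrane inhibitor of the attack complex, was 2.60-fold higher in endothelial cells. The 17 MHC class I and interferon genes were divided: 8 were called higher and 4 lower, the median log2 fold change was 0.12, and 6 were shown to lie within 2-fold. The shares over all genes tested were 27% higher and 24.8% lower. H2-D1, whose reads can be shared with other H2 genes, was 2.39-fold higher in endothelial cells. Ifit1, an interferon-induced gene, was 2.52-fold lower, while B2m, the light chain of class I, lay within 2-fold.

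Cd34 was high in both populations. It stood at 1078, 971, 466, 869.8 and 1137 CPM in endothelial cells and 1449, 1437, 1319, 1227 and 1871 CPM in CAF2. Every endothelial library was below every CAF2 library, by least in tumour 11 of endothelial cells against tumour 10 of CAF2. The log2 fold change was -0.69 ± 0.21 (95% interval -1.19 to -0.20, edgeR adjusted p = 0.0273), lower in 5 of 5 tumours. The call was lost without tumour 6 (log2 -0.74, edgeR adjusted p = 0.0663), 10 (-0.76, 0.0515) or 11 (-0.70, 0.0821), and in the fit of all 30 libraries (-0.77, 0.145), and Cd34 was not shown to lie within 2-fold. In the other populations Cd34 stood at 10.3 to 106 CPM in CAF1, and at 23.6 ± 10.4, 0.756 ± 0.778 and 1.18 ± 1.09 CPM (SD, n = 5 each) in the CD206neg, CD206hi and CD206pos macrophages. CD34 was part of the gates of CAF1 and CAF2, so these levels are a description for the fibroblasts. For endothelial cells the labels name no gate on CD34. Cd34 lies on chromosome 1 at 194938821 to 194961292 in GRCm38.p6, on the forward strand.

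Other sialomucins were not shared. Podxl, which encodes podocalyxin, stood at 433, 349, 72.4, 479.8 and 425 CPM in endothelial cells and 0, 0.848, 0, 0.571 and 0.278 CPM in CAF2 (1159-fold higher, edgeR adjusted p = 1.67e-05). Emcn, which encodes endomucin, an endothelial sialomucin, stood at 1007, 909.7, 308, 814 and 955 CPM and at most 0.252 CPM. Podxl2, which encodes endoglycan, went the other way at 1.47, 1.08, 2.63, 1.19 and 1.61 CPM against 17.9, 21.6, 13.6, 20.4 and 15.9 (10.9-fold lower). Podxl and Emcn were lowest in endothelial tumour 8, and the groups of all these genes lay apart.

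Promoter sequences of Cd34 and of genes that parted the populations are shown because 2 short motifs were searched in them, CAGGAAG, a core bound by ETS factors, and CATCTG, an E-box. Each line is the gene strand, 5′ to 3′, from the RefSeq promoters of build GRCm38.p6, with the motif in capitals (CTTCCTG and CAGATG are the same motifs read on the opposite strand) and up to 40 bases on either side. All lie on the forward strand, within 250 bases upstream of the start, and were chosen because they hold the motif. Cd34 (chr1:194938639-194938725), Robo4 (chr9:37401882-37401968), Egfl7 (chr2:26580953-26581039) and Emcn (chr3:137340864-137340950) hold CAGGAAG, and Pdgfra (chr5:75152029-75152114), Sema3c (chr5:17574576-17574661) and Col3a1 (chr1:45311416-45311501) hold CATCTG.
Cd34: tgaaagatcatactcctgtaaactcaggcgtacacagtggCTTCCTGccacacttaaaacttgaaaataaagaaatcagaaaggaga
Robo4: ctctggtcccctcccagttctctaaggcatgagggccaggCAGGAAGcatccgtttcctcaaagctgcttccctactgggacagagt
Egfl7: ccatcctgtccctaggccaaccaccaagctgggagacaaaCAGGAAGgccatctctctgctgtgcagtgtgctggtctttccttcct
Emcn: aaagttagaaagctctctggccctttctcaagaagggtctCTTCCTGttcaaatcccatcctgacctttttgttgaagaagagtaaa
Pdgfra: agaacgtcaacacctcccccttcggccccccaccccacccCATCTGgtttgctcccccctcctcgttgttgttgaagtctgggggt
Sema3c: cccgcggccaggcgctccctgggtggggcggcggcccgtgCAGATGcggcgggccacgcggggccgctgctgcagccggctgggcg
Col3a1: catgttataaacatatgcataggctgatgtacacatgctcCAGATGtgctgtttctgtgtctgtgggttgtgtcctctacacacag
The match begins 142 bases before the start in Cd34, 50 in Robo4, the receptor of vascular stability, 90 in Egfl7, a secreted angiogenic factor that holds a second match, and 174 in Emcn. In endothelial cells Robo4 stood at 255, 248, 88.2, 279.9 and 241 CPM and Egfl7 at 701, 1449, 639, 1458 and 1131 CPM, while in CAF2 they were at most 0.242 and 1.60 CPM, so of these 4 genes only Cd34 was high in both populations.

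The share of genes with a motif was counted over both strands of the 250 upstream bases, for genes with an entry in the promoter table. CAGGAAG was in 155 of 966 matched genes at least 4-fold higher in endothelial cells (16.1%), in 118 of 884 at least 4-fold lower (13.3%), in 339 of 3192 within 2-fold (10.6%), and in 11.9% of all tested genes matched, against 10.8% of all 32851 promoters. A second ETS core, CCGGAAG, was distributed otherwise, in 6.94% of genes higher, 4.86% of genes lower and 20.8% of genes within 2-fold, against 15.6% of tested genes and 6.91% of all promoters. CATCTG was in 15.9% of genes higher and 17.8% of genes lower, against 9.46% within 2-fold, 11.9% of tested genes and 14.4% of all promoters. ACAATGG, a SOX motif, was in 3.11% and 2.04%, and TAATTA, a homeodomain motif, in 3.62% and 3.85% of genes higher and lower, with 2.02% and 2.99% of tested genes and 3.02% and 4.84% of all promoters. No motif is contained in another. A gene can have several promoters, 1.33 on average in both directions of change and 1.25 within 2-fold, and no test was made of these shares.

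Sharing was tested over all genes. Of 6423 genes with a mean of at least 10 CPM in both populations, 3886 (60.5%) were shown to lie within 2-fold by 2 one-sided tests at a Benjamini-Hochberg adjusted p under 0.05. Of these, 2978 were not called as different and 908 were called with a small difference. A narrower limit of 1.5-fold was met by 0 genes after adjustment with edgeR, by 2194 at an unadjusted p under 0.05, by 0 with DESeq2 and by 856 with limma voom. The shared genes of highest mean CPM that encode no ribosomal protein, on a scale not divided by gene length, included the ferritin chain Ftl1, the membrane protein Itm2b, the intermediate filament Vim, the chaperone Hspa8, B2m, the lysosomal protease Ctsb and the G protein subunit Gnas. Vim was at 2497, 2854, 897, 2593 and 2358 CPM in endothelial cells and 1626, 2889, 2152, 2243 and 2618 CPM in CAF2, with overlapping ranges and endothelial tumour 8 the lowest library.

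Genes known from both cell types did not all sit within 2-fold. Of 23 such genes, 10 were called higher and 6 lower in endothelial cells, 7 were not called and 5 were shown to lie within 2-fold (median log2 -0.07). Cavin1, a coat protein of caveolae, was among those within 2-fold at 205, 226, 104, 235 and 189.8 CPM against 158, 216, 201, 222 and 264, whereas Cav1, caveolin-1 itself, was 5.16-fold higher in endothelial cells (edgeR adjusted p = 0.000173). S1pr1, the receptor for sphingosine-1-phosphate, was 93.2-fold higher, and Sparcl1, a matricellular protein, 51.8-fold higher. Ly6a, which encodes the stem cell antigen Sca-1, was detected in both but was 10.9-fold lower in endothelial cells, at 367, 516, 193, 262 and 421 CPM against 2617, 4915, 3383, 3349 and 4905. Tgfbr2, a TGF-beta receptor, was 9.57-fold lower. Id1, a target of BMP signals, was 17.5-fold higher in endothelial cells, at 169, 229, 84.6, 366 and 269 CPM against 7.73, 15.8, 16.8, 10.8 and 11.1. Lgals1, which encodes galectin-1, was at 113, 68.2, 312, 94.9 and 82.4 CPM against 792, 2521, 2161, 1368 and 2086, lower in endothelial cells without overlap (edgeR adjusted p = 0.000339), with tumour 8 the highest endothelial library. Igfbp7, an IGF-binding protein of vessel walls, was high in both and 4.42-fold higher in endothelial cells, at 10249, 16262, 3563, 11697 and 14404 CPM against 1882, 3211, 2774, 1912 and 2423. Sparc, the secreted collagen-binding protein of matrix, was at 14501, 24995, 5683, 17538 and 18858 CPM against 11712, 35848, 20975, 14338 and 19069 and was neither called nor shown to lie within 2-fold.

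To find genes that, like Cd34, marked both populations, the mean of both was tested against the mean of the other 4 in a fit of all 30 libraries. Since the mean was tested, a gene high in either population alone can be called. Of 13610 genes, 4784 (35.2%) were called higher in the pair. For 59 of them (0.434% of genes tested) the lowest of the 10 endothelial and CAF2 libraries was above the highest of the other 20, and this count was 96 without tumour 8. Among the 59, 26 were also called higher and 7 lower in endothelial cells than in CAF2, and 18 were shown to lie within 2-fold. Tek had the widest gap, with a lowest level of 45.7 CPM in the pair and a highest level of 9.39 CPM elsewhere (log2 9.39 ± 0.24 against the other populations). Cd34 followed, with 466 against 106 CPM (log2 7.72 ± 0.32). Both log2 values average the other 4 populations on the log scale, so populations near 0 CPM raise them beyond the gap between libraries. Because CAF1 and CAF2 were parted by CD34, the level of Cd34 in CAF2 and its gap to CAF1 are in part set by the gates. The place of Cd34 among these genes is therefore a description and not a result of the test.

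The next genes by this gap were Ackr1, the actin-binding protein Limch1, the neurofilament Nefl, Ramp2, the chemerin receptor Gpr1, Lims2, a partner of integrin-linked kinase, the transcript Gm16897 and the heat shock protein family member Hspa12b. Limch1 was at 37.04, 43.4, 36.6, 52.99 and 48.3 CPM in endothelial cells and 23.9, 31.03, 15.4, 23.8 and 31.9 CPM in CAF2, with at most 3.92 CPM in any other library. Lims2 was at 20.3, 16.5, 20.5, 22.5 and 24.6 CPM against 36.5, 22.2, 25.1, 40.4 and 47.04, called lower yet within 2-fold, with at most 5.71 CPM elsewhere. Nefl and Gm16897 had means under 5 CPM in both populations, and Ackr1 and Hspa12b were 9.73-fold higher and 3.75-fold higher in endothelial cells. Further down the order, the gap junction protein Gja1 was at 1344, 731, 465, 649 and 931 CPM against 646, 449, 582, 469 and 653, with at most 324 CPM in any other library, and was called higher in endothelial cells without tumour 8 (log2 0.70). For Jam2, Lama4, the kinase Fyn and the transcription factor Zeb1 the populations were shown to lie within 2-fold. Fyn was at 132 CPM or more in the pair and at most 66.4 CPM elsewhere. Cavin2, a caveolar protein, was 3.85-fold higher in endothelial cells, and Bmp6 4.45-fold lower, both still above all other libraries.

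**Figure D5:**
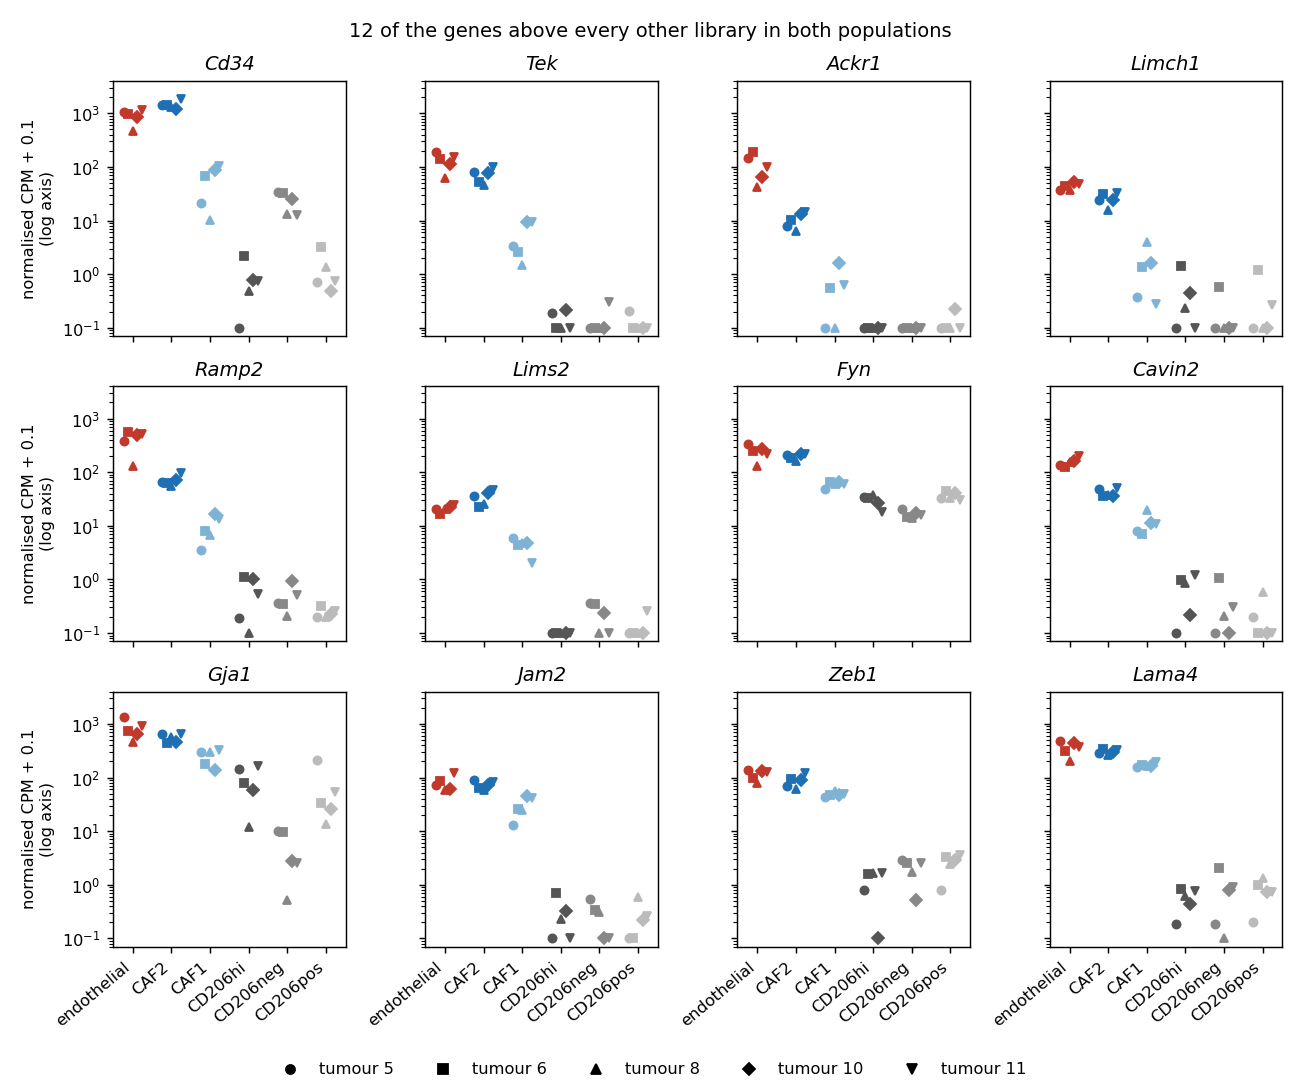
Normalised CPM plus 0.1 (log axis) in all 30 libraries for 12 of the 59 genes whose lowest endothelial or CAF2 library was above every library of the other 4 populations. Points are libraries with a symbol for each tumour, and the gap was widest for Tek (45.7 against 9.39 CPM) and Cd34 (466 against 106 CPM) and narrow for Lama4 (206 against 193 CPM).

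Among the genes whose means over the 6 populations followed Cd34 most closely on the log2 scale of CPM plus 1 were Tmem198b (Pearson's r 0.988 over 6 population means), Ilf2 (0.982), Fyttd1 (0.979) and Exosc1 (0.979), out of 9839 genes, as a description with no test, since all points come from the same libraries. Their levels differed far less between populations than those of Cd34, as for Ilf2 with 57.8 ± 8.06 CPM in endothelial cells, 64.1 ± 11.9 in CAF2 and 52.3 ± 9.27 in CAF1 (SD, n = 5 each).

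All 15 cell cycle genes were called higher in endothelial cells (median log2 1.37, range 0.87 to 2.13), and their summed level was 447 to 648 CPM against 153 to 345 in CAF2. Cdk1, the mitotic kinase, was at 44.4, 48.8, 64.1, 76.2 and 62.8 CPM against 4.27, 9.70, 24.8, 25.1 and 22.3 (4.10-fold higher, edgeR adjusted p = 0.00112), and Top2a, a topoisomerase of dividing cells, was 2.55-fold higher. The luminal and myoepithelial sums given above were also higher in the endothelial libraries. Their part in the cell cycle genes was not tested. Of 15 hypoxia and glycolysis genes, 9 were called higher and 3 lower (median log2 0.84). The glucose transporter Slc2a1 was at 207, 136, 101, 125 and 119 CPM in endothelial cells and 45.8, 60.8, 28.9, 45.9 and 38.3 CPM in CAF2 (3.23-fold higher, edgeR adjusted p = 0.000161), without overlap, and the glycolytic kinase Pgk1 was 1.86-fold higher. Egln3, an oxygen-sensing prolyl hydroxylase, was at 43.3, 34.4, 58.3, 41.1 and 27.9 CPM against 0, 6.42, 1.01, 3.35 and 0.741. Ldha, the lactate dehydrogenase, was not called and lay within 2-fold, but was called higher without tumour 8 (log2 0.49). Hk2, a hexokinase, went the other way at 11.5, 2.95, 6.54, 0.316 and 2.37 CPM against 119, 123, 45.3, 78.1 and 56.02 (21.04-fold lower).

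Of 14 immediate early and stress genes, which respond to tissue dissociation, 8 were called lower in endothelial cells and none higher (median log2 -0.76). Their summed level was 11136 to 16607 CPM in endothelial libraries and 25271 to 46208 CPM in CAF2, so the groups did not overlap. Egr1 was at 1085, 555, 687, 1076 and 1228 CPM against 3116, 2538, 3613, 3792 and 5728 (3.96-fold lower, edgeR adjusted p = 0.000269), and Fos at 3837, 2982, 2616, 3468 and 3522 CPM against 6958, 7800.0, 9015, 9654 and 12649.7 (2.69-fold lower). Nr4a1 and Jund were not called and lay within 2-fold. Whether handling of the tissue has a part in other differences was not tested.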

How the data were processed

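Per the labels' protocols, cells were sorted from digested tumours (collagenase, 60 min at 37 °C), cDNA was made with SMARTseq v4, libraries with Ovation Ultralow V2, and sequencing ran on 3 lanes of a HiSeq instrument. Reads had been trimmed and aligned by the submitters, whose processing notes list the genome mm10 with DESeq2 1.26, HISAT2 2.0.4, SAMtools 1.3.1 and Trimmomatic 0.36. How reads were counted, with which strand setting, and what was done with reads that match several genes, is not stated in these notes. The authors deposited raw counts per gene, used for all main results, and a matrix of normalised signal per gene scaled by DESeq2, used as an alternative. The count matrix holds 14118 genes with Entrez identifiers. Of these 14104 have a symbol in the reference table, and the 14 others hold 0.0107% of the counts. Its smallest row total is 72, so rarer genes had been left out.

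Genes were filtered with edgeR's filterByExpr, scaled by TMM and tested with edgeR 4.0.16 (quasi-likelihood, R 4.3.3) with tumour as a block, since libraries with the same number come from the same tumour of 1 mouse. After removal of group means, same-numbered libraries correlated at r 0.123 to 0.290 in all 5 tumours. With tumour as a block, the p-values measure how the difference between populations varied over the 5 animals. Being within 2-fold was tested with 2 one-sided tests in the same fit, for genes at 10 CPM or more in both groups. On simulated counts for this comparison (12286 genes) edgeR found 27% of 2-fold and 83.8% of 4-fold changes, with 4.35% of its calls false. The share of false calls was 1.85% with edgeR without the block, 4.72% with voom and 24.1% with DESeq2. The 2-fold test in edgeR passed 3% of genes changed 2-fold. Whether these shares hold for the measured counts, where 51.8% of genes were called, was not tested. A count of 3 is 0.168 to 0.364 normalised CPM in these 10 libraries and served as the floor for bounds; it covers counting error only. Levels are not divided by gene length, and an order of genes by CPM served only to choose which shared genes to name. Coordinates and promoters are from RefSeq, GRCm38.p6, which is of the same build; genes without an entry in the promoter table were left out of motif counts.

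The members, gene lists and tests were chosen with earlier results of these data known. Genes were named by a rule: the sort and marker genes; the 8 largest rises and falls among genes called with at least 10 CPM in the higher group and 1 direction in 5 of 5 tumours; up to 4 members of each list called in each direction by adjusted p and up to 3 not called; the 10 shared genes of highest mean CPM without ribosomal proteins; the 10 with the widest gap among genes that marked both populations, with list members among them; and the 5 nearest to Cd34. Some genes that the rule names are not reported here. Chosen after their values were seen, for their place in a pathway or their contrast with another member, were Angpt1, Bmp6, C3, Calcrl, Cavin2, Ccl7, Cdk1, Egfl7, Esam, Esm1, Fbln5, Fgf10, Fyn, Gja1, H2-D1, Icam1, Il33, Kdr, Lamc1, Ly6c1, Mmp2, Nid2, Nr4a1, Nrp1, Osr1, Plvap, Rgs5, Serping1, Thbd, Timp3, Vegfc and Zeb1. Alternatives were the fit without the block, all 30 libraries, DESeq2 1.42.0, limma 3.58.1 (voom, and on log2 of the deposited normalised values plus 1), RLE factors, other filters, robust estimation and each tumour left out.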

Additional observations from a re-analysis of the deposited data

Results flagged for a closer look

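A named gene's 5 values in a population were marked where the highest or lowest library lay far from the other 4. This held for 37 of 333 gene and population pairs. Chance marks about 1 in 20 when libraries vary independently and values are normally distributed. The values were CPM without a log, which can be skewed, and the genes of 1 library are not independent. No excess over chance can be read from the count. In the endothelial library of tumour 8 the highest values were those of Exosc1 (42.6 CPM against 22.04 to 26.00), Lgals1 (312 CPM against 68.2 to 113), Mmp2 (113 CPM against 5.06 to 22.04), Osr1 (10.2 CPM against 0 to 1.47) and Tbx15 (4.64 CPM against 1.08 to 1.67). In the endothelial library of tumour 8 the lowest values were those of Agrn (64.9 CPM against 79.5 to 84.4), Emcn (308 CPM against 814 to 1007), Esam (546 CPM against 1167 to 1310.0), Ets1 (233 CPM against 464 to 518) and Flt4 (28.9 CPM against 82.9 to 101). Also lowest there were Myct1 (71.9 CPM against 154 to 169), Nrp2 (67.4 CPM against 109 to 125), Robo4 (88.2 CPM against 241 to 279.9), Tie1 (124 CPM against 375 to 477) and Vim (897 CPM against 2358 to 2854). In the CAF2 library of tumour 6 the highest values were those of Cd14 (46.5 CPM against 8.05 to 13.6), Cxcl1 (8865 CPM against 3595 to 5109), Epcam (99.8 CPM against 0.966 to 4.37), Ets1 (31.9 CPM against 12.9 to 17.6) and Krt14 (5.70 CPM against 0.0713 to 1.43). Also highest there were Lama5 (1.58 CPM against 0 to 0.428), Ptprc (1.33 CPM against 0 to 0.084) and Rgs5 (9.33 CPM against 0.0805 to 1.39). In the CAF2 library of tumour 11 the highest value was that of Cxcl10 (85.5 CPM against 16.4 to 35.5). In the endothelial library of tumour 11 the highest values were those of Cxcl12 (134 CPM against 61.7 to 76.7) and Ogn (2.96 CPM against 0.0791 to 0.895). In the endothelial library of tumour 5 the highest values were those of Ednrb (743 CPM against 229.6 to 369), Krt14 (571 CPM against 16.4 to 127) and Sema3a (5.26 CPM against 1.86 to 2.57). In the CAF2 library of tumour 5 the highest values were those of Epas1 (5.96 CPM against 3.33 to 3.64) and Ilf2 (85.3 CPM against 57.96 to 60.00). In the CAF2 library of tumour 8 the highest values were those of Exosc1 (34.2 CPM against 24.2 to 26.9), Hgf (23.9 CPM against 11.9 to 15.4) and S1pr1 (6.72 CPM against 2.28 to 3.27). In the endothelial library of tumour 6 the highest values were those of Ftl1 (5636 CPM against 2754 to 3339), Jund (2529 CPM against 717 to 1200.0) and Ldha (1575 CPM against 954 to 1110.0). Among the marked values, the endothelial library of tumour 8 thus had low values of endothelial genes and high values of the fibroblast genes Mmp2, Osr1 and Tbx15. Its summed adventitial fibroblast genes were the lowest of the endothelial libraries, as given above. The CAF2 library of tumour 6 had high values of the epithelial genes Epcam and Krt14, the leukocyte genes Cd14 and Ptprc, and the pericyte marker Rgs5. Its 14 pericyte and smooth muscle genes summed to 274 CPM, inside the CAF2 range of 176 to 331, where tumour 8 was the highest. Whether other cells in these sorts have a part was not tested.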

How the results depend on the processing

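The alternatives turned the direction of none of the 144 named genes called, and 135 of these kept their call under all 14. Only direction and call were rechecked gene by gene. Being within 2-fold was rechecked as a count over all genes, not for each named gene. Of the named genes not called, 8 changed sign near 0 (log2 as reported, then under the alternative): Exosc1 (0.012; -0.012 with all 30 libraries, -0.0018 with DESeq2, -0.0078 with voom, -0.0026 with RLE factors, -0.057 on normalised values, -0.10 to 0.046 with 1 tumour left out), Hspa8 (0.022; -0.040 with voom, -0.045 on normalised values, -0.11 to 0.063 with 1 tumour left out), Jag1 (0.13; -0.031 with all 30 libraries, -0.11 to 0.24 with 1 tumour left out), Vim (-0.068; 0.00054 without the block, -0.28 to 0.18 with 1 tumour left out), and with 1 tumour left out B2m (0.12; -0.049 to 0.33), Ilf2 (-0.097; -0.20 to 0.039), Cavin1 (-0.13; -0.30 to 0.031) and Sparc (-0.30; -0.49 to 0.033). Beside the losses without 1 tumour given above, calls were lost for Cd34, Fbln5, Gpr1 (log2 -1.10) and Limch1 (0.79) in the fit of all 30 libraries, for Fbln5 and Cx3cl1 (0.91) without the block, and for Fbln5 with no filter on low counts. With no replicate block 6073 genes were called against 6454, 3624 against 3886 were shown to lie within 2-fold, and 4478 against 4784 were called higher in the pair than in the other populations. The pairing left 59 genes above every other library in both fits. Calls were 5588 to 7281 under the other fits and 5030 to 6399 with 1 tumour left out, and the count within 2-fold was 3213 to 3651 with 1 tumour left out. A minimum of 2-fold left 4137 genes called, and a limit of 1.5-fold left 0 shared genes in place of 3886; both ask more of each gene. The count above every other library was 66 to 96 with 1 tumour left out (96 without tumour 8, where the endothelial library stood apart), since fewer libraries must then be passed. Voom called 12 named genes that edgeR did not, among them Lmo2, Acvrl1, Pdgfrb and Gja1. Depth limits genes under about 0.168 to 0.364 normalised CPM, since a count of 0 allows up to 3 counts.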
